A study of Mus musculus with 3 samples.

Results

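The YAP, TAZ and TEAD genes are described here in NIH3T3, a fibroblast line established from mouse embryos. The rule took the rows of the UMI-RNAseq table whose gene name equals 1 of 10 symbols, and all 10 were found among the 55573 genes listed. They are the coactivators Yap1 and Wwtr1 (which encodes TAZ), the transcription factors Tead1, Tead2, Tead3 and Tead4, the kinases Lats1 and Lats2, and the targets Ankrd1 and Amotl2. The data hold 3 libraries of cells grown in serum-containing medium with no experimental treatment. They are called library 1, library 2 and library 3 after the numbers in their titles. According to the paper, the cells were treated with trypsin and washed before lysis, and any effect of this on the levels was not tested. The libraries share 1 condition and 1 genotype, so no groups of samples were compared. Nothing in the sources states that the libraries came from separate cultures, and each SD may therefore cover technical spread only. Values are FPKM, the fragments counted after removal of PCR copies by unique molecular identifiers (UMIs), per kilobase of gene length and per 1000000 fragments of the library. Totals recovered from the values were 14423209, 13959723 and 14307241 fragments in libraries 1, 2 and 3.

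In the Hippo pathway, the kinases MST1 and MST2 (genes Stk4 and Stk3), with the scaffold proteins SAV1 and MOB1, activate LATS1 and LATS2. The LATS kinases phosphorylate YAP and TAZ, which are then held in the cytoplasm or degraded. Coactivators that escape this step enter the nucleus and bind TEAD factors on DNA, where they switch on genes for growth and for the cytoskeleton. In cultured fibroblasts the step responds to cell density, spreading and serum. An mRNA level does not measure the phosphorylation of YAP or TAZ or where in the cell they are.

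The cell type label was checked against marker genes. The threshold of a mean of at least 1 FPKM was reached by 49.2% of protein-coding genes and 23.2% of all genes. All 8 fibroblast markers reached it. Fn1 (fibronectin) was the highest at 4377 ± 86.1 FPKM (SD, n = 3) and S100a4 the lowest at 2.97 ± 0.208. The extraction text of the labels mentions retina, and 0 of 9 retina markers reached 1 FPKM. Their summed level was 0.993, 1.15 and 0.586 FPKM in libraries 1, 2 and 3, and the photoreceptor genes Nrl and Rbp3 were listed at 0 in each. The epithelial markers summed to between 0.370 and 0.561 FPKM per library, with 0 of 5 at 1 FPKM and Epcam, Krt5 and Krt18 listed at 0.

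TEAD factors bind DNA at the letters GGAATG, which read CATTCC on the other strand. These letters were searched on both strands in RefSeq promoter windows (GRCm38.p6), which run from 250 bases before an annotated gene start to 50 bases after it. Of the 10 genes, 8 matched a window by symbol, and 6 of the 8 held the letters in at least 1 window. No window matched Tead1 or Tead4, which were therefore not searched. The 6 include Lats2, Ankrd1 and Amotl2, which are also listed as known targets of YAP and TAZ. Over all genes with a window the share was 16.6% of 27025 genes, and it was 14.2% of the 9043 genes with a mean of at least 1 FPKM. By window, 8 of 12 held the letters, against 14.7% of all 32851 windows, and the windows of the pair of starts of Wwtr1 hold the same site. The longer TGGAATGT, which contains GGAATG, was in 1.35% of windows and in 0 of these 12. The windows without GGAATG were those of Tead2 and Lats1, the third of Tead3 and the second of Lats2. The 30-base stretches around the letters are shown because they place the motif in the genes of the coactivators as well as in those of the targets. Capitals mark the motif on either strand, and each line runs 5′ to 3′ on the strand of the gene.
Yap1: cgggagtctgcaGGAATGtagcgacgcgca
Wwtr1: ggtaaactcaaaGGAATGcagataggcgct
Tead3, first start: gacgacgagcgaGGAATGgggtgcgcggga
Tead3, second start: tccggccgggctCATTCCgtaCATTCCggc
Lats2: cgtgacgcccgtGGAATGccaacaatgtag
Ankrd1, distal: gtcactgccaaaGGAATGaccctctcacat
Ankrd1, proximal: gacactaagtctGGAATGaaaattcacctg
Amotl2: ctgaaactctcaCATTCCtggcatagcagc
The Yap1 stretch lies at chr9:8004720-8004749 on the minus strand and the Wwtr1 stretch at chr3:57576029-57576058 on the minus strand. Those of Tead3 are chr17:28350970-28350999 and chr17:28350706-28350735, also on the minus strand. That of Lats2 is chr14:57746102-57746131 on the minus strand. It spans the first of its 2 RefSeq starts, which lies inside the annotated gene. The Ankrd1 stretches are chr19:36120037-36120066 and chr19:36119950-36119979 on the minus strand, and the Amotl2 stretch is chr9:102717727-102717756 on the plus strand. The stretches of Ankrd1 and Amotl2 and the second of Tead3 precede the RefSeq start used but also lie inside the annotated gene. In GENCODE M21, on the same build, the Ankrd1 and Amotl2 stretches and the second of Tead3 fall in annotated exons of any gene or strand. The Lats2 stretch does so with 22 of its 30 bases. The stretches of Yap1 and Wwtr1 and the first of Tead3 hold no exonic bases. Counted to its first base from the start, the motif was at -141 in Yap1, at -136 in Wwtr1, at -210 and -123 in Ankrd1 and at -65 in Amotl2. The second start of Tead3 held the letters at -123, -114 and 3. A match of letters is a description and not a measured binding site.

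**Figure D1:**
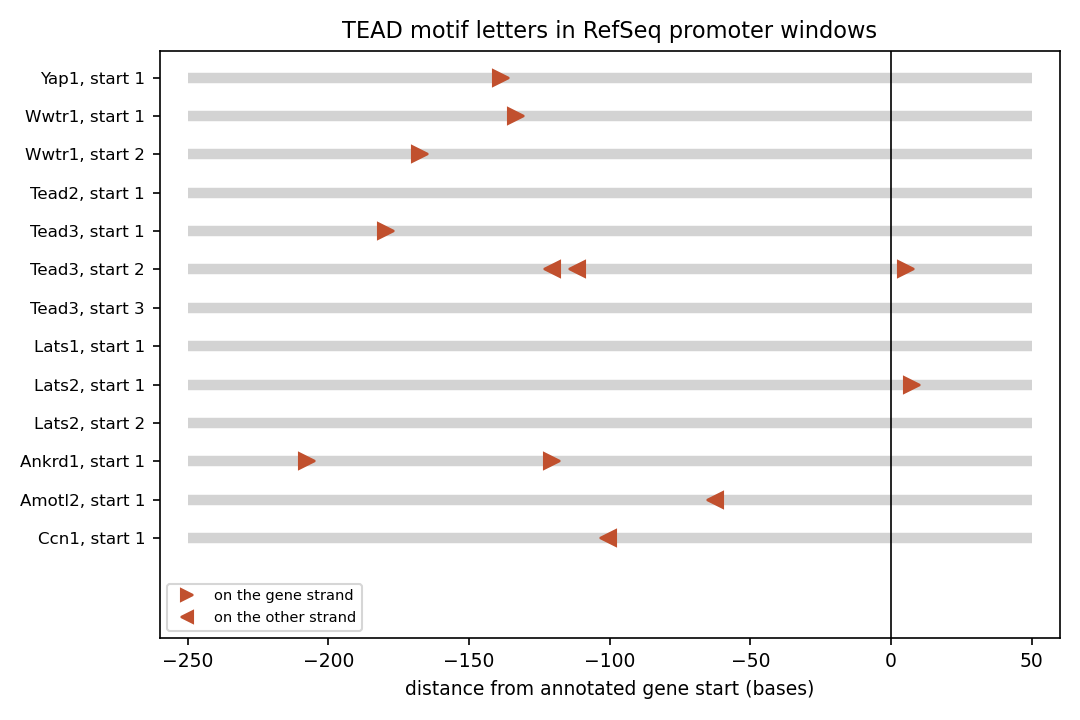
Positions of the letters GGAATG (arrowheads, pointing right on the gene strand and left on the other strand) in RefSeq promoter windows, drawn as grey bars against the distance in bases from the annotated start. The windows of Yap1, Wwtr1, Ankrd1, Amotl2 and of Ccn1, a target added for comparison, hold the letters before the start, and those of Tead2 and Lats1 hold none. The letters of Ankrd1 and Amotl2 lie before the RefSeq start but inside the annotated gene.

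The 250 bases before the first start of Wwtr1, at chr3:57575911-57576160 on the minus strand, hold no annotated exon of GENCODE M21 and are given in full, with the motif in capitals, to show the surroundings of the site in a coactivator gene.
Wwtr1, 250 bases before the start: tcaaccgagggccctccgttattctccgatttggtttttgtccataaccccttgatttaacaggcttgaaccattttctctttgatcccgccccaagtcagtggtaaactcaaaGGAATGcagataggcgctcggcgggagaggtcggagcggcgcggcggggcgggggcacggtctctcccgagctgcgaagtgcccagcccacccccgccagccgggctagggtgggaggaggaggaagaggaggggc

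Each of the 10 genes had a mean of at least 1 FPKM, against 23.2% of all 55573 genes and 49.2% of the 21980 protein-coding genes of GENCODE M21. Their means ran from 15.4 FPKM for Tead3 to 158.9 FPKM for Tead1, with a median of 50.5 FPKM. The median of the 10813 protein-coding genes with at least 1 FPKM was 21.9 FPKM. Both medians depend on the gene length used, and that of the protein-coding genes was not computed with another length. Each value rested on at least 382 fragments per library. In descending order the means were those of Tead1, Amotl2, Yap1, Tead2, Wwtr1, Ankrd1, Tead4, Lats1, Lats2 and Tead3. Tead1 and Amotl2 were not separated by their spread, since Tead1 was the higher of the pair in only 1 of 3 libraries. Yap1 and Tead2 were not separated either, with overlapping ranges and Yap1 the higher in 2 of 3 libraries. For the other neighbours in this order, the lowest library of the higher gene lay above the highest library of the lower gene.

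**Figure D2:**
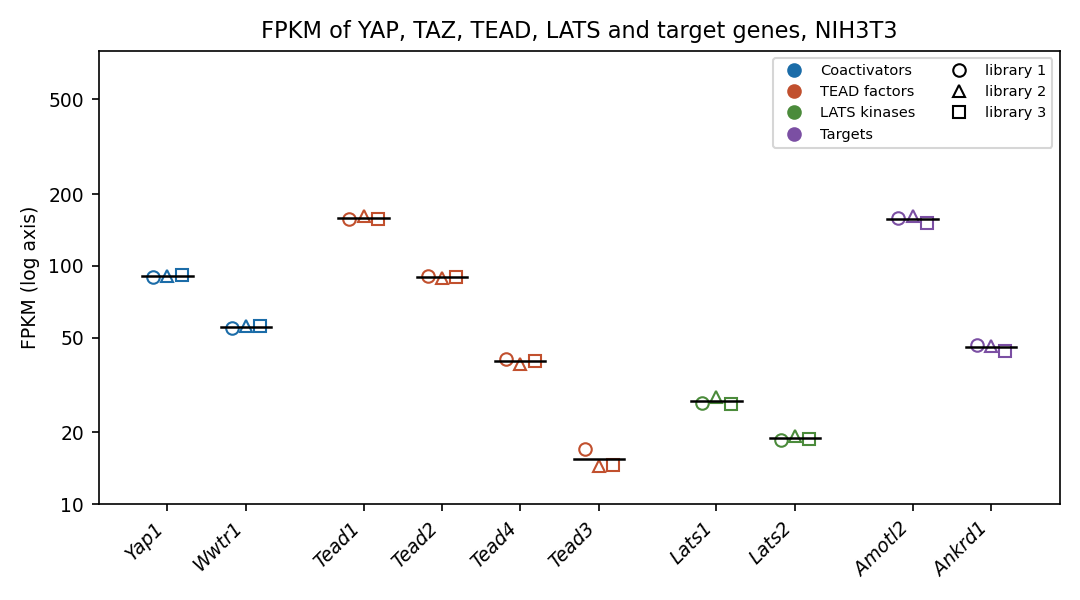
FPKM (log axis) of the 10 genes in library 1 (circles), library 2 (triangles) and library 3 (squares), coloured by role, with a black bar at the mean of the 3 libraries. The libraries lie close together for each gene, from about 15.4 FPKM on average for Tead3 to 158.9 FPKM for Tead1.

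Both coactivators were expressed, and Yap1 had the higher deposited FPKM. Yap1 (ENSMUSG00000053110) is on chromosome 9 of GRCm38, minus strand, between 7931999 and 8004596. Its levels in libraries 1, 2 and 3 were 90.1, 90.6 and 91.4 FPKM, with a mean of 90.7 ± 0.651 (SD, n = 3). Wwtr1 (ENSMUSG00000027803) is on chromosome 3, minus strand, between 57455649 and 57575910. It had 54.6, 56.0 and 55.9 FPKM there and averaged 55.5 ± 0.801 (SD, n = 3). The ranges of the pair did not overlap. Within a library, Yap1 was 1.65, 1.62 and 1.63 times Wwtr1, a log2 ratio of 0.71 ± 0.02 (SD, n = 3), and made up 62.0% ± 0.247 of their summed FPKM.

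The order of the coactivators depended on the gene length used. By fragments, Wwtr1 had more than Yap1, with 3633, 3607 and 3694 in libraries 1, 2 and 3 against 2668, 2594 and 2684. The deposited values divide by the mean length of all annotated isoforms, which is 2052 nt over the 10 isoforms of Yap1 and 4615 nt over the 2 isoforms of Wwtr1. The isoforms of Yap1 range from 276 to 5282 nt, and its longest is 2.57 times the mean, a factor above that of 84.9% of genes with at least 1 FPKM. With the longest isoform of each gene, Yap1 was at 35.2 ± 0.253 and Wwtr1 at 54.5 ± 0.787 fragments per kilobase and 1000000 fragments (SD, n = 3). Yap1 was then 0.646 ± 0.00677 times Wwtr1 in place of 1.63 ± 0.0171. With the mean of protein-coding isoforms in the basic set of the annotation, a length of 4143 nt for Yap1, the ratio was 0.809 ± 0.00848. Which coactivator mRNA was the more abundant thus differed between the lengths used.

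TEAD paralogs share a TEA domain that binds DNA and a carboxy-terminal domain that binds YAP, TAZ and the VGLL cofactors. All of the paralogs were expressed, in the order Tead1, Tead2, Tead4 and Tead3 in each library. Tead1 (ENSMUSG00000055320, plus strand of chromosome 7, 112679318 to 112906807) had 157.7, 161.2 and 157.7 FPKM in libraries 1, 2 and 3. Tead2 (ENSMUSG00000030796, plus strand of chromosome 7, 45215753 to 45233644) had 90.7, 88.6 and 89.7 FPKM in the same libraries. Their means were 158.9 ± 2.03 and 89.7 ± 1.01 FPKM (SD, n = 3), and Tead1 stood at 1.77 ± 0.0415 times Tead2. Tead4 (ENSMUSG00000030353, minus strand of chromosome 6, 128224288 to 128300823) had 40.5, 38.6 and 39.9 FPKM, with a mean of 39.7 ± 0.947 (SD, n = 3). Tead3 (ENSMUSG00000002249, minus strand of chromosome 17, 28331671 to 28350817) had 17.1, 14.5 and 14.7 FPKM, with a mean of 15.4 ± 1.44 (SD, n = 3). Tead3 was thus the lowest paralog in every library and was higher in library 1 than in the others. The exact Poisson 95% intervals of Tead3, which cover counting error only, were 15.6 to 18.7 FPKM for library 1, 13.1 to 16.0 for library 2 and 13.2 to 16.2 for library 3. The interval of library 1 thus overlaps the others only at its lower end.

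Tead1 made up the largest part of the summed TEAD level. The sum was 305.9, 303.0 and 301.9 FPKM in libraries 1, 2 and 3. Tead1 held 52.3% ± 0.835 of it (SD, n = 3), Tead2 29.5% ± 0.244, Tead4 13.1% ± 0.271 and Tead3 5.07% ± 0.441. Within a library, the level of Yap1 and Wwtr1 together was 0.482 ± 0.00773 times the TEAD sum. For Tead1, whose 15 isoforms average 2493 nt, the longest has 9964 nt. The ratio of longest to mean length was above that of 98.6% of genes with at least 1 FPKM for Tead1 and of 98.4% for Tead2, and its median over those genes was 1.72. Tead2 has 17 annotated isoforms of 178 to 3396 nt with a mean of 868 nt. With the longest isoforms, Tead1 held 43.8%, Tead2 25.3%, Tead4 21.6% and Tead3 9.31% of the sum. The coactivators then stood at 0.990 ± 0.0228 times the TEAD sum. Tead1 stayed the highest paralog and Tead3 the lowest with each of the 4 gene lengths, whereas Tead2 was 0.971 ± 0.0126 times Tead4 with the union of exons.

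**Figure D3:**
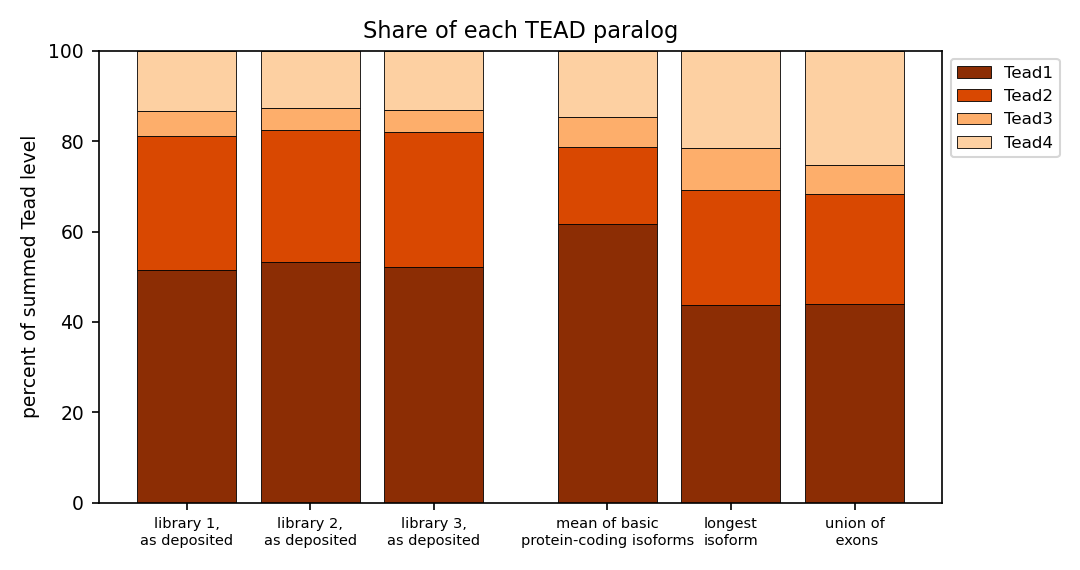
Percent of the summed Tead level held by each paralog, in each library as deposited (3 bars on the left) and as the mean of 3 libraries with the other gene lengths (3 bars on the right). Tead1 holds the largest part in each bar, between 43.8% and 61.8% on average, and Tead3 the smallest.

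The LATS kinases had lower deposited FPKM than the coactivators they phosphorylate. Lats1 (ENSMUSG00000040021, plus strand of chromosome 10, 7681214 to 7716460) had 26.6, 28.2 and 26.2 FPKM in libraries 1, 2 and 3, with a mean of 27.0 ± 1.03 (SD, n = 3). Lats2 (ENSMUSG00000021959, minus strand of chromosome 14, 57689662 to 57758388), which is also a target of YAP and TAZ, had 18.5, 19.2 and 18.8 FPKM, with a mean of 18.9 ± 0.347 (SD, n = 3). The ranges did not overlap, and Lats1 was 1.44, 1.47 and 1.39 times Lats2. With the longest isoform the ratio widened to 2.86 ± 0.0745 (SD, n = 3). Together the kinases had 45.9 ± 1.32 FPKM, against 146.2 ± 1.35 FPKM for the sum of Yap1 and Wwtr1. With the union of exons Lats1 came to 19.2 ± 0.734 and Yap1 to 20.1 ± 0.144 (SD, n = 3), and their ranges overlapped. The exons of Lats2 overlap those of Gm49361, a readthrough gene on the same strand, over 2955 of 6971 exonic bases (42.4%), and Gm49361 was listed at 0 in each library. Of the distinct 75-nt words of Lats2, 40.5% also occurred in a Gm49361 transcript, against 0.448% shared by Yap1 with its antisense gene Gm20416 and 0% for the other 8 genes. How the counting treated reads in both genes is not given in the sources used here, and its part in the level of Lats2 was not tested. This limit holds for each level, ratio and rank of Lats2 given here, since no gene length used addresses it. Gm20416 was at 0.143 to 0.148 FPKM. The exons of Tead2 overlap those of Cd37, on the opposite strand, by 13 bases.

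Ankrd1, which encodes a nuclear and sarcomeric ankyrin repeat protein, and Amotl2, an angiomotin that binds YAP and restrains it, are direct targets of YAP and TAZ. Amotl2 (ENSMUSG00000032531, plus strand of chromosome 9, 102716672 to 102733418) had 159.3, 162.0 and 151.6 FPKM in libraries 1, 2 and 3, with a mean of 157.6 ± 5.42 (SD, n = 3). Ankrd1 (ENSMUSG00000024803, minus strand of chromosome 19, 36111961 to 36120099) had 46.7, 45.9 and 44.1 FPKM, with a mean of 45.6 ± 1.32 (SD, n = 3). Ankrd1 stood at 0.289 ± 0.00519 times Amotl2. With the longest isoforms this became 0.628 ± 0.0113, because the longest isoform of Amotl2 is 2.36 times its mean length and that of Ankrd1 is 1.08 times. With those lengths Amotl2 was the highest of the 10 genes, at 66.9 ± 2.30, followed by Wwtr1 at 54.5, Ankrd1 at 42.0 ± 1.22, Tead1 at 39.7 ± 0.508 and Yap1 at 35.2. Lats2 was then the lowest, at 6.78 ± 0.125, below Tead3 at 8.45 ± 0.793.

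Differences between the genes were larger than the spread between libraries in the 10 ratios taken, and the sign of each ratio was the same in 3 of 3 libraries. When the signs of the log2 ratios were permuted exactly (two-sided), p was 0.25 in each case and remained 0.25 with Benjamini-Hochberg adjustment over all 10. With 3 libraries no smaller p can be reached, and 0.05 is out of range of the test.

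**Figure D4:**
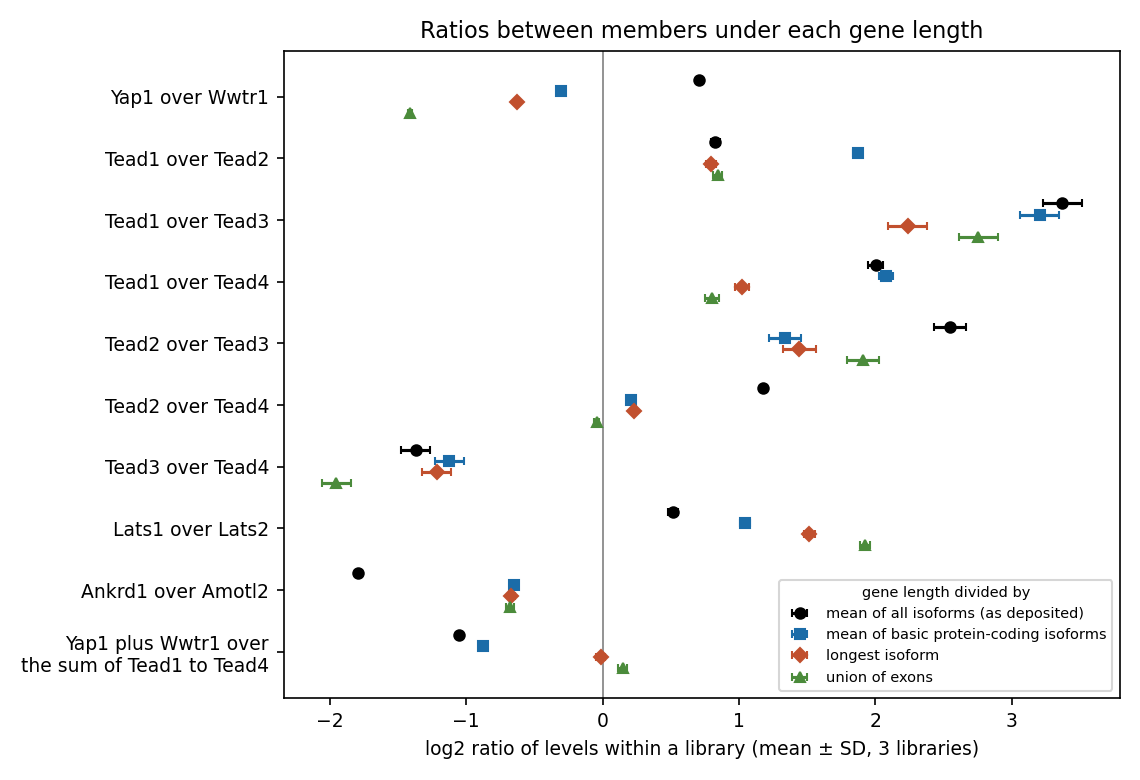
Log2 ratio of levels within a library (mean and SD of 3 libraries) for 10 pairs of genes or sums, with each of 4 gene lengths as the divisor. The log2 ratio of Yap1 over Wwtr1 is 0.71 as deposited and lies below 0 with the other lengths, whereas Lats1 lies above Lats2 and Ankrd1 below Amotl2 with each length. None of the lengths addresses the exons that Lats2 shares with Gm49361.

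The libraries gave close values for these genes. The highest library exceeded the lowest by a factor of at most 1.18, for Tead3, where the median over genes with at least 1 FPKM was 1.09. The coefficient of variation was 0.718% for Yap1, where counting error alone would give 1.94%. It was at least 1.5 times the counting error in 3 of the 10 genes, against 16% of 12904 genes with at least 1 FPKM. The 3 genes were Amotl2, with 3.44% against 1.54%, Tead3, with 9.38% against 4.93%, and Lats1, with 3.82% against 2.24%. Without library 1 the ratio of spread to counting error of Tead3 fell from 1.90 to 0.159. Without library 2 that of Lats1 fell from 1.71 to 0.512, and without library 3 that of Amotl2 fell from 2.23 to 0.787. Leaving out the most distant of 3 libraries always lowers the spread, so these falls do not show that 1 library caused it.

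The other genes of the Hippo kinase cassette were expressed as well. All 9 genes of the list, which includes Yap1, Wwtr1, Lats1 and Lats2, had at least 1 FPKM, against 49.2% of protein-coding genes, with a median of 27.0 FPKM. Mob1a, a scaffold that activates LATS, was the highest at 122.8 ± 2.26 FPKM (SD, n = 3), and its paralog Mob1b had 17.8 ± 0.639. The MST kinase genes Stk3 and Stk4 had 28.3 ± 0.562 and 21.2 ± 1.21 FPKM. Sav1, the scaffold that joins MST to LATS, was the lowest at 14.1 ± 0.356 FPKM. These places depend on the length, since Lats2 at 6.78 was the lowest of the list with the longest isoform and Sav1 was then at 9.86 ± 0.248. With the union of exons Wwtr1, at 53.6, was above Mob1a, at 52.9.

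Of the 18 upstream regulators, which include Amotl2, 17 had at least 1 FPKM, against 49.2% of protein-coding genes, with a median of 27.2 FPKM over the list. Map4k4, a kinase that can act on LATS beside MST, was the highest at 273.5 ± 3.84 FPKM (SD, n = 3). It stayed the highest of the list with each length, but at 62.1 ± 0.872 with the union of exons. The related kinases Taok1, Taok2 and Taok3 had 13.1 ± 0.123, 20.4 ± 0.644 and 17.0 ± 0.304 FPKM. Nf2, which encodes the membrane scaffold Merlin, had 67.2 ± 1.40 FPKM and Frmd6 had 77.3 ± 1.30. The scaffold genes Wwc1 and Wwc2 were lower, at 13.7 ± 0.395 and 18.9 ± 0.529 FPKM. Among the angiomotins, Amotl1 followed Amotl2 with 108.5 ± 3.29 FPKM, and Amot had 11.3 ± 0.800. The phosphatase gene Ptpn14 had 34.4 ± 0.920 FPKM. The LIM proteins that bind LATS had 25.5 ± 0.575 for Ajuba, 40.1 ± 2.04 for Limd1 and 29.7 ± 1.47 for Wtip. Their order depends on the length. With the basic protein-coding isoforms Ajuba was at 21.1 ± 0.475, Limd1 at 15.4 ± 0.787 and Wtip at 15.0 ± 0.744. The atypical cadherin Fat1 had 29.0 ± 0.590 FPKM, far above Fat4 at 1.94 ± 0.215. Dchs1, a ligand of Fat4, stayed under 1 FPKM, at 0.134, 0.0828 and 0.121 in libraries 1, 2 and 3.

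VGLL proteins bind TEAD at the surface that YAP and TAZ use. Of the 6 TEAD cofactors listed, which include Yap1 and Wwtr1, 4 had at least 1 FPKM. Without the coactivators it was 2 of 4, close to the 49.2% of protein-coding genes. Vgll3 had 39.2, 37.9 and 39.1 FPKM in libraries 1, 2 and 3, and Vgll4 had 17.6, 18.3 and 17.1. Both lay below Wwtr1 in each library. Vgll1 and Vgll2 were listed at 0 in the 3 libraries, and a floor of 3 fragments allows at most 0.138 FPKM for Vgll1 and 0.164 FPKM for Vgll2 in library 2, the shallowest.

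Of 22 genes known as targets of YAP and TAZ in other cells, 19 had at least 1 FPKM, against 49.2% of protein-coding genes, with a median of 32.1 FPKM over the list. The list includes Lats2, Ankrd1 and Amotl2, and without these 16 of 19 reached 1 FPKM. Ptpn14, given above with the upstream regulators, is on this list too and is counted in both. Ccn1 (ENSMUSG00000028195), which encodes the matrix protein CYR61, had 119.6, 118.8 and 119.1 FPKM in libraries 1, 2 and 3. Ccn2 (ENSMUSG00000019997), which encodes connective tissue growth factor, had 68.2, 71.0 and 69.6 FPKM. Their means were 119.2 ± 0.398 and 69.6 ± 1.40 FPKM (SD, n = 3), and both lay above Ankrd1 and below Amotl2 in deposited FPKM. Ccn1 has 1 isoform and stayed at 119.2 with each length, above Amotl2 at 69.3 ± 2.38 with the basic protein-coding isoforms, 66.9 with the longest isoform and 47.1 ± 1.62 with the union of exons. For comparison with the stretches shown above, the Ccn1 window holds the letters at -103, in a stretch at chr3:145650071-145650100 on the minus strand.
Ccn1: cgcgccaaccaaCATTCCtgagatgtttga
The receptor tyrosine kinase gene Axl was the highest target at 650.0 ± 5.50 FPKM, followed by Myof at 194.4 ± 2.54. Axl was the highest with each length, but with the other lengths Ccn1 came second and Myof was at 49.1 to 90.1. Gadd45a, Asap1 and Crim1 had 124.3 ± 1.78, 118.4 ± 0.581 and 100.1 ± 2.33 FPKM, and F3, which encodes tissue factor, had 69.9 ± 1.47. Arhgef17, which acts on small GTPases, had 29.8 ± 0.462 FPKM, and Dock5, of the same kind, had 23.7, 23.9 and 23.8 in libraries 1, 2 and 3. Ccdc80 and Foxf2 had 19.3 ± 0.666 and 18.8 ± 0.278, and Nuak2 and Rbms3 had 10.6 ± 0.320 and 10.1 ± 0.265. Fjx1 was low, with 1.79, 2.22 and 1.49 FPKM. Nt5e had 0.0791, 0.191 and 0.186 FPKM, which are 3, 7 and 7 fragments. Tgfb2 had 2 fragments in library 2 and 0 in the others, and Igfbp3 was listed at 0, where 3 fragments allow at most 0.104 FPKM. Of the 22 targets, 15 matched a promoter window and 7 of the 15 held GGAATG, against 16.6% of all genes with a window. Without Lats2, Ankrd1 and Amotl2, already counted above, it was 4 of 12.

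**Figure D5:**
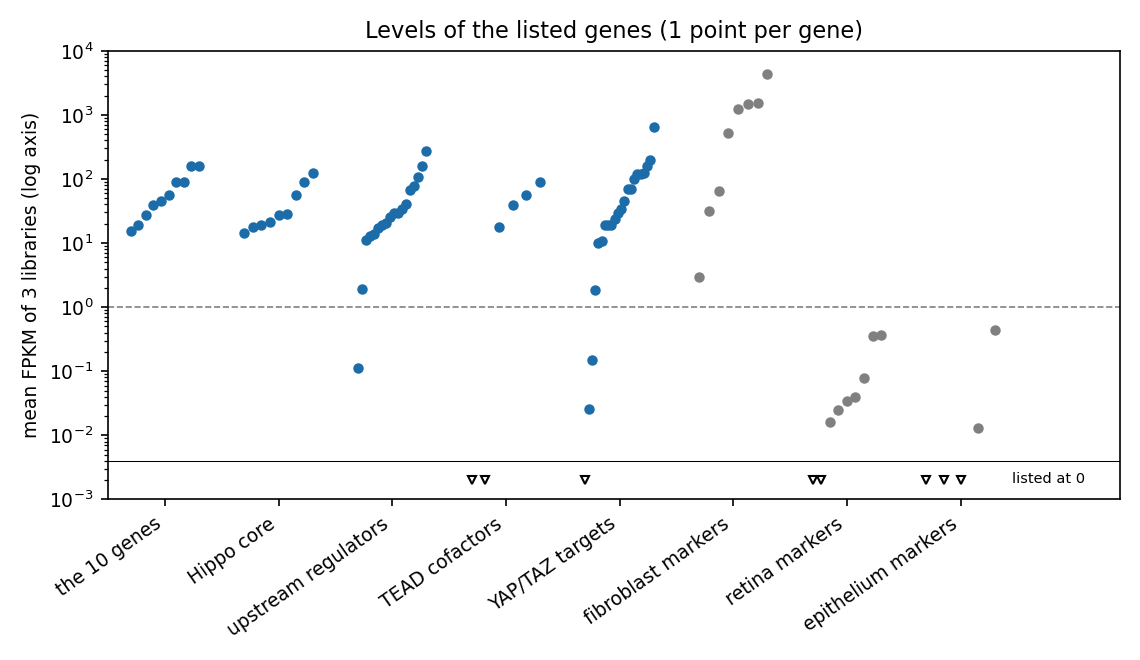
Mean FPKM over 3 libraries (log axis) of each gene in the lists, 1 point per gene, with genes listed at 0 in all libraries drawn as triangles in the band at the bottom and a dashed line at 1 FPKM. The 10 genes, the Hippo core, most upstream regulators and most targets lie above the line, and the retina and epithelium markers lie below it.

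The protein-coding genes closest in level to Yap1 were found by the summed absolute difference of log2(FPKM + 1) over the 3 libraries. They were Dnaja2 at 90.6 ± 0.439 FPKM (SD, n = 3), Rab11a at 90.7 ± 1.09 and Dtx3 at 91.3 ± 0.878, with summed differences of 0.01, 0.02 and 0.03. For Wwtr1 they were Ncbp1 at 55.7 ± 0.843, Matr3 at 55.6 ± 0.998 and Nemf at 55.3 ± 1.03 FPKM, with summed differences of 0.01, 0.02 and 0.03. With 3 libraries of 1 condition, this measures closeness of level only.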

How the data were processed

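UMI-RNAseq was measured in 3 libraries of NIH3T3 cells of 1 condition, grouped by the cell line in the sample labels. The authors identified UMIs with UMI-tools (1.0.0), mapped reads with UMIs by Hisat2, removed duplicates of the same position and UMI, and counted reads per gene with HTSeq v0.6.1. They deposited FPKM values, scaled to gene length and to the fragments counted in the library. The genome build and annotation are not given in the sources used here. The pair of tables agrees in every FPKM value of 55573 genes, and 0 columns of values were left unused.

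No count model was fitted, since FPKM values are not counts. Library totals and fragments were recovered from low FPKM values and the mean isoform length in GENCODE M21 (GRCm38), which gave whole fragments, within 0.01, in all libraries for 99.1% of the 26193 genes above 0. The recovery was tested on simulated data and returned 3 of 3 totals. Intervals are exact Poisson 95% intervals and, like floors of 3 fragments, cover counting error only. Gene ratios, computed library by library, were tested by exact permutation of their signs (two-sided), adjusted over 10 ratios by the Benjamini-Hochberg method. Python 3.11.15, numpy 2.4.6, pandas 2.3.3, scipy 1.17.1 and matplotlib 3.10.9 were used.

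The genes and lists were chosen with earlier results of these data known. The genes named are the 10 genes of the report, the genes of 4 pathway lists and 3 marker lists, the 3 protein-coding genes closest in level to Yap1 and to Wwtr1, and genes whose exons overlap them. Alternatives were leaving out each library, median-of-ratios scaling, TPM, a median in place of the mean, a pseudocount of 1, other thresholds, the longest isoform and no division by length. The union of exons and the basic protein-coding isoforms were added as lengths after the data were examined.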

Additional observations from a re-analysis of the deposited data

How the results depend on the processing

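Of 110 log2 ratios recomputed under the alternatives, 104 kept the sign of the deposited values. Of the 10 ratios, 7 kept it under each alternative. The count of 104 includes settings that could not change a sign. TPM and median-of-ratios scaling cancel within a library, and a pseudocount adds the same to both terms. Leaving out a library or taking a median cannot flip a sign shared by 3 of 3 libraries. Only the settings of gene length could do so, and the exceptions were all among them. The log2 ratio of Yap1 over Wwtr1, 0.71 as deposited, was -0.63 with the longest isoform, -0.46 with no division by length, -0.30 with the basic protein-coding isoforms and -1.41 with the union of exons. With the union of exons, Tead2 over Tead4 was -0.0422 against 1.18, and Yap1 plus Wwtr1 over the sum of Tead1 to Tead4 was 0.15 against -1.05. The last ratio was also near 0 with the longest isoform, at -0.01 ± 0.03 (SD, n = 3), and above 0 in libraries 2 and 3. The share of Tead1 was 43.8% with the longest isoform, 70.3% with no division by length, 43.9% with the union of exons and 61.8% with the basic protein-coding isoforms. In the same order, that of Tead2 was 25.3%, 13.8%, 24.4% and 16.9%, and that of Tead4 was 21.6%, 10.7%, 25.2% and 14.6%. That of Tead3 was 9.31% with the longest isoform, 6.51% with the union of exons and 6.71% with the basic protein-coding isoforms. By construction these settings change only the divisor of each gene. The 35 recomputed counts of genes past a threshold stayed within 1.5 times the reported counts. With 3 libraries p cannot go below 0.25 in any of these settings. No paired analysis was possible because only 1 condition was measured.

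Which isoforms the cells expressed cannot be read from 1 value per gene, and the deposited lengths include short annotated fragments. Counting error, taken as the root mean square of the errors of the 3 libraries, was highest for Tead3 among the 10 genes, at 4.93%.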
